A study of Homo sapiens with 4 samples.

Results

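The 8 genes described here are members of the BCL2 family, BCL2, BCL2L1, MCL1, BCL2A1, BAX, BAK1, BCL2L11 and BBC3. They were chosen by name from GENCODE release 44 on hg38, and are 8 of the 19970 protein-coding genes on chromosomes 1 to 22 and X. For each gene the SMC1 and CTCF peaks with a summit in the gene body or within 100 kb of the gene start were taken, a stretch called its zone below. Loops were taken where an anchor lay within 5 kb of an annotated transcript start. This gave 205 of the 96855 SMC1 peaks and 96 of the 62869 CTCF peaks on these chromosomes, with 68 of the 28012 loops labelled SMC1 and 119 of the 80487 loops labelled CTCF.

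HiChIP, which joins chromatin immunoprecipitation to proximity ligation, was done on HG00731, a human lymphoblastoid cell line (LCL), that is, B cells made to grow by Epstein-Barr virus. SMC1, a subunit of cohesin, was targeted after dual cross-linking with formaldehyde and EGS (FA-EGS), and CTCF after cross-linking with formaldehyde alone (FA), in 2 biological replicates each, with no treatment and no knockout in either group. The authors pooled the replicates of a target before they called peaks and loops, so no value below has a spread between replicates. The intervals given for shares and medians cover counting error only. Since target and cross-linking changed together, they cannot be told apart in any comparison of the lists.

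The BCL2 family decides whether the mitochondrial outer membrane is opened in apoptosis. BCL2, BCL-xL (from BCL2L1), MCL1 and BFL-1 (from BCL2A1) hold the membrane closed, BAX and BAK (from BAK1) form the pores, and the BH3-only proteins BIM (from BCL2L11) and PUMA (from BBC3) bind the survival proteins and release the pore formers. In B cells the balance between them sets which cells live through selection, and BCL2 is best known from its translocation to the immunoglobulin heavy chain locus in follicular lymphoma. Cohesin extrudes DNA loops until it meets CTCF, which halts it in a manner that depends on the direction of the CTCF motif, and motifs at the ends of a loop often point towards each other (convergent).

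The labels of the loop lists and the peaks at the loop anchors went against each other. The loop caller, MAPS, reports loops only where an anchor holds a peak of the sample's own peak list. In the list labelled SMC1, every loop had a CTCF peak at an anchor and 11 of 28012 had no SMC1 peak, whereas in the list labelled CTCF every loop had an SMC1 peak and 3745 of 80487 had no CTCF peak. The study's own loop totals are those of the lists with the targets the other way round. Its counts of peaks inside loop anchors also match almost exactly only in that order. The labels thus appear exchanged, the list labelled SMC1 holding the CTCF loops and that labelled CTCF the SMC1 loops. The lists are still named by their labels throughout, so each statement on a loop list is to be read for the other target. In all, the loops labelled SMC1 held 788356 read pairs and those labelled CTCF 2666327. The cell type could be checked only by peaks, since no RNA was measured. An SMC1 peak lay within 1 kb of a start of 8 of 8 B cell marker genes, 1 of 4 T cell markers and 2 of 5 markers of other lineages. Of all coding genes 62.6% had such a peak. A CTCF peak did so for 6, 2 and 1 of these genes, against 46.7%. With so few genes and such background shares, these counts cannot settle the cell type.

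The CTCF sites of the 8 zones are shown first, since the loops are described against them. The motif of 19 bp was learned from the CTCF summits and reads GGCCACCAGGGGGCGCCGG at its most frequent letters. Below, the best match within each zone's most significant CTCF peak (by -log10 q-value) is printed from hg38, on the strand on which the motif reads forward, with the 19 matching bases in capitals.
BCL2 zone, chr18:63318366-63318426, plus strand: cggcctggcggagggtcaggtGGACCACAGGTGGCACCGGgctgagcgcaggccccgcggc
BCL2L1 zone, chr20:31634398-31634458, plus strand: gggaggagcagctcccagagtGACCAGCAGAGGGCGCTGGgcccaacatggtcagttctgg
MCL1 zone, chr1:150560064-150560124, minus strand: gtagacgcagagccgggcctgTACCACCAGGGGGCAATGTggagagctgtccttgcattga
BCL2A1 zone, chr15:79993543-79993603, minus strand: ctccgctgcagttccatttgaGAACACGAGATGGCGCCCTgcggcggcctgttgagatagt
BAX zone, chr19:48971076-48971136, minus strand: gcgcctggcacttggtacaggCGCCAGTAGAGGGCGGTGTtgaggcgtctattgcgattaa
BAK1 zone, chr6:33585790-33585850, plus strand: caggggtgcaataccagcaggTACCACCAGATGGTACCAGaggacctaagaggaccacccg
BCL2L11 zone, chr2:111117166-111117226, plus strand: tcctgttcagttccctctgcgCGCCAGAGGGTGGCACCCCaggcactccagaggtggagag
BBC3 zone, chr19:47230632-47230692, plus strand: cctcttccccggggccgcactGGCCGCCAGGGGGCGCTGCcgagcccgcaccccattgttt
The match was strongest in the BBC3 zone, at 21.3 bits, and in the BCL2L1 zone, at 20.6 bits, where bits are the log2 odds of the sequence under the motif against base composition. It reached 18.5 bits in the BAX zone, 15.8 in the MCL1 zone, 14.9 in the BCL2L11 zone, 14.4 in the BCL2A1 zone and 14.2 in the BAK1 zone. These 7 lie above 13.5 bits, the 99th percentile of the best match within 50 bp of points 1000 bp from CTCF summits. The match in the BCL2 zone, at 12.9 bits, lies below 13.5 bits. The matches were sought over whole peaks of 624 to 2276 bp, longer than those windows, and the motif was learned from the same CTCF list. Lying above 13.5 bits is therefore a description and no evidence for a site. The distance from summit to motif ran from 36 bp in the MCL1 zone to 417 bp in the BCL2A1 zone. Over all 96 CTCF peaks of the zones, 33.3% held a match above 13.5 bits anywhere in the peak (95% Wilson interval 24.7% to 43.2%), beside 30.2% of the whole CTCF list.

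SMC1 peaks were dense around the 8 genes. An SMC1 summit lay within 1 kb of a start of 7 of the 8 genes, BCL2A1 being the exception, against a background of 62.6% of coding genes. A CTCF summit did so for 6 genes, without MCL1 and BCL2A1, against 46.7%, and both did for the same 6, against 44.2%. With 8 genes these counts are a description. The density of SMC1 peaks per 100 kb of zone was 17 for BCL2A1, 16.5 for BCL2L11, 15.5 for BCL2, 12 for BAK1, 10.5 for BAX, 8.5 for BBC3, 8 for MCL1 and 7 for BCL2L1. The median of coding genes was 5.50, with quartiles of 3 and 8.5, so all 8 genes lay above the median. The first 3 stood apart, since a density at least as high was found for 0.295% of coding genes in the case of BCL2A1, 0.446% for BCL2L11 and 0.876% for BCL2.

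CTCF peaks did not follow the same order. Their density per 100 kb was highest at BAK1, with 8, and at BAX, with 7, followed by MCL1 and BBC3 with 6, BCL2L1 with 5, BCL2 with 4.72, and BCL2A1 and BCL2L11 with 4.50. The coding gene median was 3.86. For BCL2A1 and BCL2L11 a CTCF density at least as high was found at 42.3% of coding genes. The 3 zones densest in SMC1 peaks were thus near the middle of all genes in CTCF peaks.

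**Figure D1:**
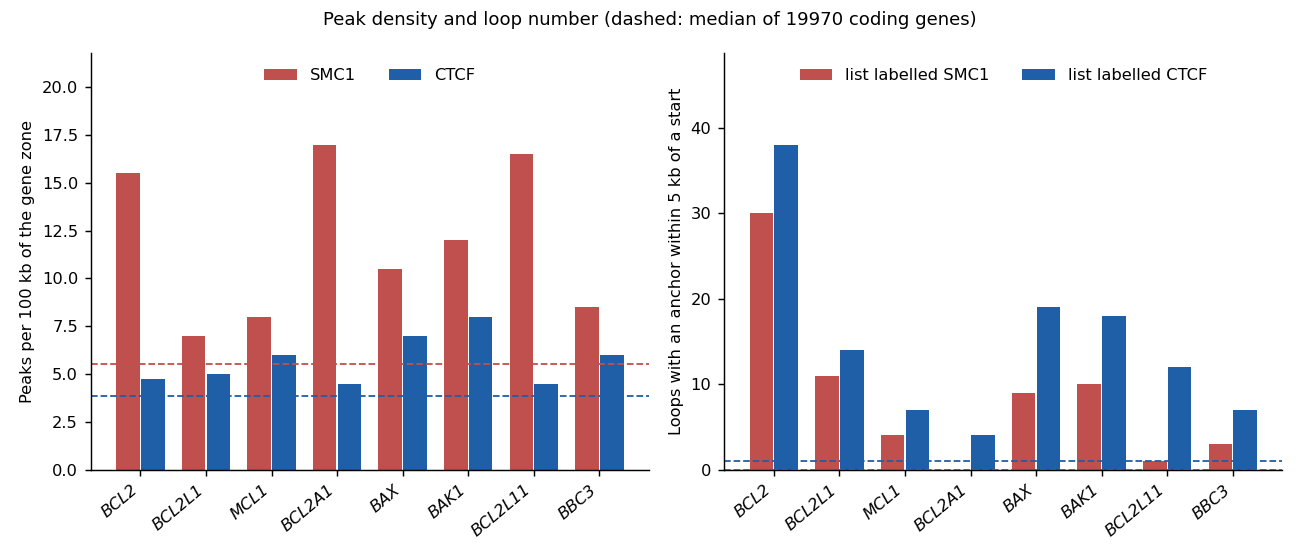
Peaks per 100 kb of the zone (left) and loops with an anchor within 5 kb of a transcript start (right) for each of the 8 genes, with SMC1 in red and CTCF in blue, and dashed lines at the median of all coding genes. BCL2A1, BCL2L11 and BCL2 have the highest SMC1 bars, at 17, 16.5 and 15.5, and BCL2 has the most loops, 30 and 38.

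The difference was made up of SMC1 peaks that no CTCF peak overlapped. Such peaks numbered 35 of 46 at BCL2, 26 of 34 at BCL2A1 and 25 of 33 at BCL2L11, but 6 of 14 at BCL2L1, 6 of 16 at MCL1, 9 of 21 at BAX, 10 of 24 at BAK1 and 7 of 17 at BBC3. Over the 8 zones 39.5% of SMC1 peaks overlapped a CTCF peak (33.1% to 46.3%), beside 47.1% of the whole list. In the other direction, 84.4% of the CTCF peaks of the zones overlapped an SMC1 peak (75.8% to 90.3%), beside 75.9% of the whole list. SMC1 peaks with CTCF had a median fold enrichment of 3.78 (3.48 to 4.49) and a median width of 946 bp. Those without it had a median fold enrichment of 2.44 (2.37 to 2.64) and a median width of 510 bp. In the whole list the medians were 4.65 and 2.76 for fold enrichment, and 965 and 472 bp for width. A wider peak meets a CTCF peak more readily under the rule of 1 bp, so this contrast is a description only. The median over all SMC1 peaks of the zones was 2.94 (2.72 to 3.16), below the 3.32 of the whole list, and for CTCF peaks it was 4.74 (3.89 to 6), an interval that holds the 5.01 of the whole list. Fold enrichment is the signal at the summit over the local background of the same sample, so values of SMC1 and CTCF are not on a common scale.

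**Figure D2:**
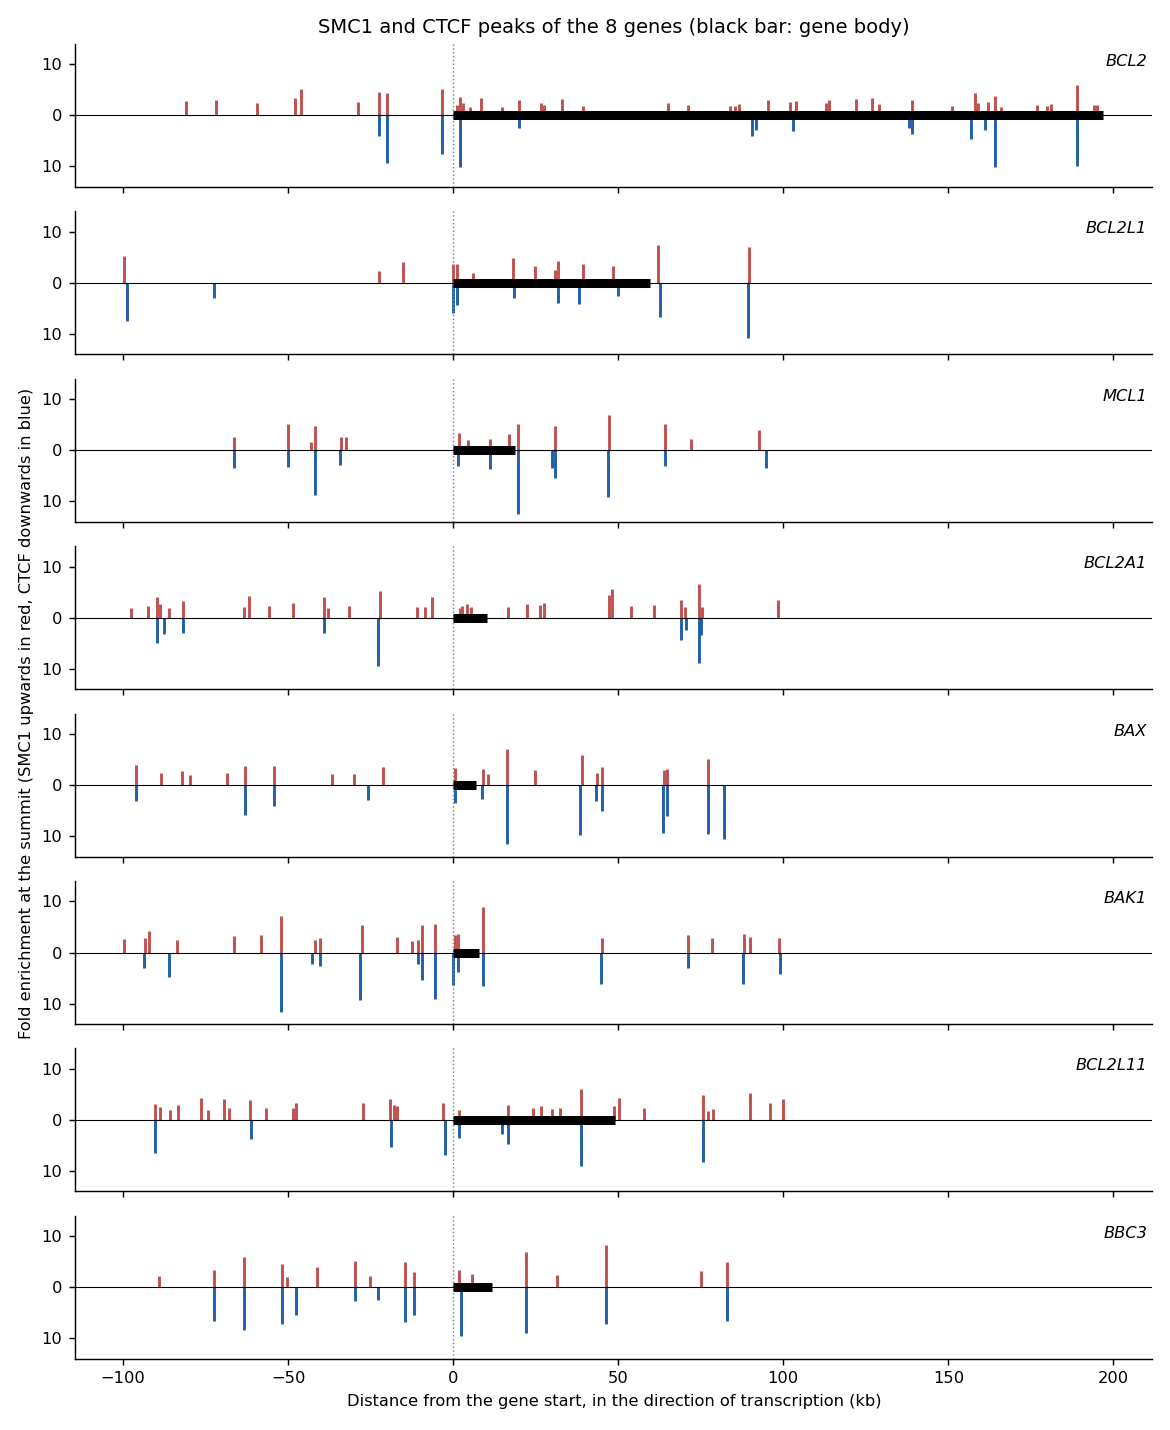
Each line is a peak summit, placed by its distance from the gene start in the direction of transcription (kb), with the fold enrichment of SMC1 upwards and of CTCF downwards, and the gene body as a black bar. BCL2, BCL2A1 and BCL2L11 carry many low SMC1 lines with no CTCF line opposite, 35, 26 and 25 peaks.

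BCL2 had the most SMC1 peaks and the most loops of the 8 genes. It spans chr18:63123346-63320128 on the minus strand, and 37 of its 46 SMC1 peaks and 11 of its 14 CTCF peaks lay in the gene body. The strongest CTCF peak, chr18:63317849-63318887, lay in an exon of BCL2, 527 bp from a start, with a fold enrichment of 10.2. CTCF peaks of almost the same height lay far inside the gene, with a fold enrichment of 10.1 at 164 kb and of 9.83 at 189 kb from the start, and a peak of 9.34 lay 19984 bp upstream in an intron of KDSR, an enzyme of sphingolipid synthesis. The highest SMC1 peak by fold enrichment, 5.89, was the one at 189 kb. By -log10 q-value it was the one at chr18:63322268-63323934, 3327 bp upstream, with 146 and a fold enrichment of 5.26.

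BCL2 loops joined the 5′ end to the 3′ part of the gene. There were 30 loops labelled SMC1 and 38 labelled CTCF, and 0.285% and 0.436% of coding genes had as many. The gene has 7 annotated starts, 3 of them between 158 and 181 kb inside the MANE Select start, so that 10 and 14 of the loops had both anchors near a BCL2 start. Only 2 and 6 loops had anchors at none but the inner starts, and 28 and 29 were at the MANE Select start itself. The strongest loop was the same bin pair in both lists, chr18:63155001-63160000 with chr18:63315001-63320000, 160 kb apart. There were 67 read pairs where 9.02 were expected in the list labelled SMC1. In that labelled CTCF there were 184 where 37.2 were expected. The bin at the 5′ end was an anchor of 21 of 30 and of 13 of 38 loops, and held 4 SMC1 peaks and 1 CTCF peak. No loop ended at the start of another coding gene. The longest loops reached 305 and 310 kb, to a bin at chr18:63015001-63020000 downstream of the gene with an SMC1 peak of 5.12 and a CTCF peak of 7.64 fold enrichment.

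**Figure D3:**
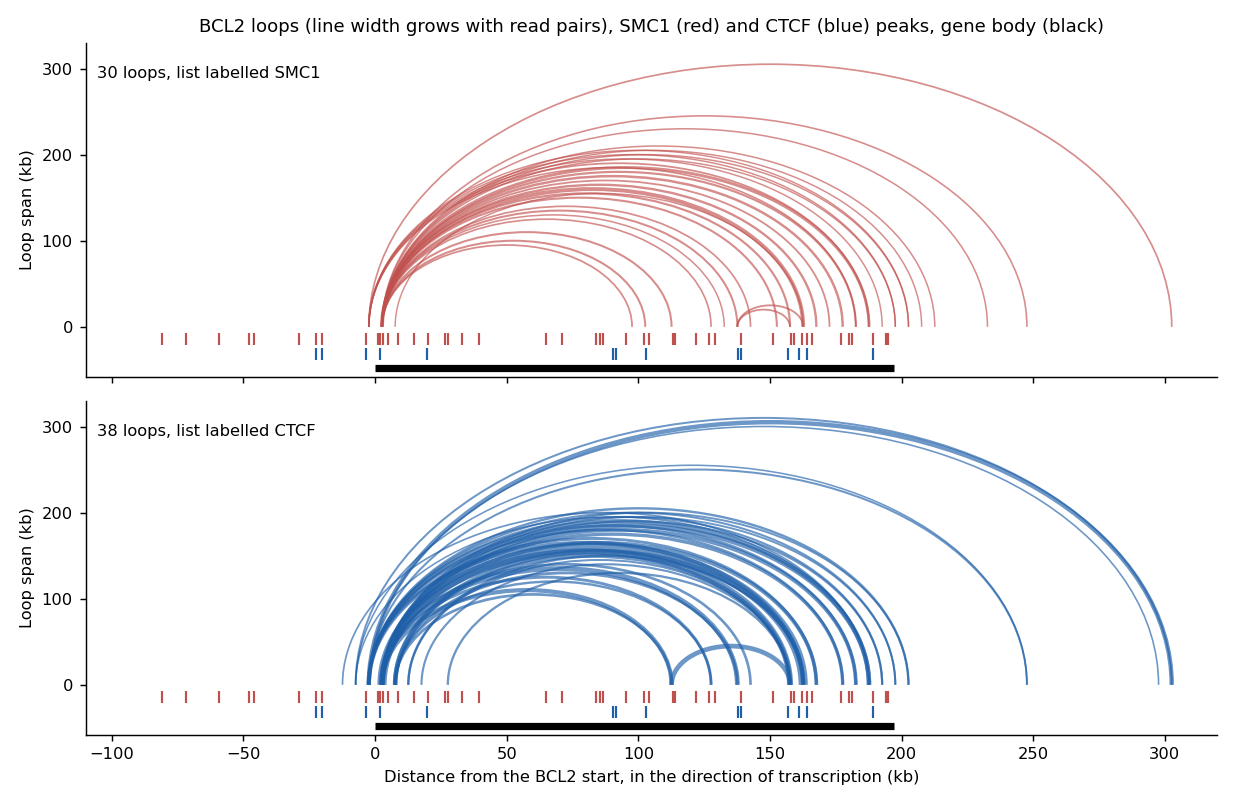
Loops at the BCL2 starts as arcs whose height is the loop span (kb), by distance from the gene start in the direction of transcription, in the list labelled SMC1 (top, 30 loops) and the list labelled CTCF (bottom, 38 loops), with line width growing with read pairs. Ticks are SMC1 (red) and CTCF (blue) peaks, and most arcs run from the start to the last part of the gene body, with a few that pass its end and reach 305 to 310 kb.

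BCL2L1, at chr20:31664452-31723989 on the minus strand, had the strongest single loop by read pairs in either list. It joined chr20:31660001-31665000, just past the end of the gene, to chr20:31720001-31725000 at its start, 60 kb apart. The list labelled SMC1 gave it 117 read pairs against 23 expected, and that labelled CTCF gave it 322 against 52.4. All 11 and all 14 loops of BCL2L1 ran downstream, and the bin at the start was an anchor of 8 of 11 and of 9 of 14. The strongest SMC1 peak of the zone, chr20:31660861-31662939, with a fold enrichment of 7.45, lay at the far end of this loop. At the start, CTCF peaks of 5.93 and 4.38 fold enrichment had their summits 1 and 23 bp from a transcript start. The strongest CTCF peak, with a fold enrichment of 10.8, lay 89.4 kb downstream, where 2 and 3 loops ended within 5 kb of a start of COX4I2, a subunit of cytochrome c oxidase.

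MCL1, at chr1:150560895-150579738 on the minus strand, had short loops only. There were 4 loops labelled SMC1 and 7 labelled CTCF, none longer than 55 and 60 kb. The strongest CTCF peak of all 8 zones by fold enrichment, 12.5, lay at chr1:150559796-150560449, in an exon of ADAMTSL4 beyond the end of MCL1. The top loop labelled CTCF joined the bin of this summit to chr1:150575001-150580000, with 162 read pairs against 81 expected. The same bins held 44 against 13.9 in the list labelled SMC1, where the top loop was that to the neighbouring bin chr1:150570001-150575000, with 58 against 25.4. In the upstream direction, 1 and 2 loops ended near a start of ENSA, an inhibitor of a protein phosphatase in mitosis. Their near anchor, chr1:150565001-150570000, lay inside the gene, 4552 bp from the nearest annotated start. These loops thus passed over the MANE Select start of MCL1 and did not begin at it. No CTCF summit lay within 1 kb of an MCL1 start, though 1 lay 1048 bp away with a fold enrichment of 3.11, and the SMC1 peak that did, 781 bp from a start, was weak, with a fold enrichment of 2.02.

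BCL2A1, a target of NF-kappaB in B cells, lies at chr15:79960892-79971196 on the minus strand and differed from the other 7 in several ways. It had no SMC1 or CTCF summit within 1 kb of a start, the nearest SMC1 summit lying 1958 bp and the nearest CTCF summit 22794 bp away. It also had no loop labelled SMC1, and 4 labelled CTCF, while 59.0% of coding genes had at least 1 loop labelled CTCF and 35.1% at least 1 labelled SMC1. All 4 ran downstream to starts of MTHFS or ST20-MTHFS, in folate metabolism, with 27, 40, 43 and 40 read pairs. A pair of them, both with an anchor at chr15:79920001-79925000, had no CTCF peak at either anchor, and with 2 loops of BCL2 they were all of the 119 that lacked 1. The 300 bp around its MANE Select start held 41.0% G and C and 2 CG dinucleotides, while for the other 7 the values ran from 58.7% to 82.3% and from 7 to 48. Larger loops passed over the gene, 5 labelled SMC1 and 18 labelled CTCF. The strongest of these labelled CTCF ran from chr15:79895001-79900000 to chr15:79990001-79995000 with 74 read pairs against 17 expected, between the CTCF peaks of 8.89 and 9.47 fold enrichment on either side of the gene.

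The loops of the pore formers BAX and BAK1 ran upstream almost without exception. At BAX all 9 loops labelled SMC1 and all 19 labelled CTCF did so, and at BAK1 all 10 and 17 of 18. BAX, at chr19:48954815-48961798 on the plus strand, is only 6.98 kb long, and its own CTCF peak at the start, 200 bp away, was low, with a fold enrichment of 3.47. The strongest peaks of both targets by -log10 q-value lay 16.4 kb downstream of the gene start in an intron of GYS1, a glycogen synthase, with fold enrichments of 7.15 for SMC1 and 11.6 for CTCF. None of the loops at the BAX start ran to this side. Its loop with the most read pairs in the list labelled CTCF held 80 against 14.1 expected and reached a bin near starts of PPP1R15A, a regulator of stress-induced translation arrest, and PLEKHA4. The near bin of this loop, chr19:48960001-48965000, lay 4148 bp from a BAX start and was an anchor of 4 of 9 and of 8 of 19 loops. Its SMC1 and CTCF summits lay 1477 and 1754 bp from a start of FTL, but 7979 and 7702 bp from a BAX start. Such loops thus cannot be assigned to BAX rather than FTL. The bin pair of the loop with 80 read pairs was not in the list labelled SMC1, where no loop of BAX held more than 18 read pairs. That number was reached by 3 loops, all ending in the bin chr19:48795001-48800000 under BCAT2, an enzyme of branched-chain amino acid breakdown, and the longest loop reached 175 kb. Of the 19 loops labelled CTCF, 12 ended at the start of another coding gene (HSD17B14, PLEKHA4, PPP1R15A or TULP2), the most of the 8 genes. Over the 8 genes it was 28 of 119, 23.5%. In the whole list, 26.7% of loops with a coding start at an anchor had one at both.

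At BAK1 (chr6:33572547-33580293, minus strand) most loops started from a bin 4708 bp upstream of a start, chr6:33585001-33590000, which was an anchor of 7 of 10 and of 13 of 18 loops. This bin held the CTCF peak with a fold enrichment of 9.08 that is printed above. The strongest loop, to chr6:33700001-33705000 in UQCC2, a factor for assembly of respiratory complex III, held 99 read pairs against 22.5 expected among those labelled SMC1 and 113 against 17 among those labelled CTCF. The CTCF peak at its far end had a fold enrichment of 16.9, higher than any CTCF peak in the 8 zones. The longest loops reached 175 and 180 kb, with 25 and 13 read pairs. At the start itself a CTCF summit lay 18 bp away, with a fold enrichment of 6.28, and an SMC1 summit 395 bp away, with 3.48.

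Of the BH3-only genes, BCL2L11, at chr2:111119378-111168444 on the plus strand, differed most between the lists. It had 1 loop labelled SMC1, running 80 kb downstream with 18 read pairs against 4.96 expected, and 12 labelled CTCF. None of the 13 had a partner in the other list, even with anchors up to 15 kb apart. For the whole lists only identical bins were counted, 19336 bin pairs of 28012 loops labelled SMC1 and 80487 labelled CTCF. Whether a gene without shared loops is unusual can thus not be said. All 13 loops used the bin chr2:111115001-111120000, which held the zone's most significant CTCF peak, 2533 bp from a start, with a fold enrichment of 6.81. Of the 12, 9 ran upstream into ACOXL, an acyl-CoA oxidase-like gene, and 2 of these ended within 5 kb of its start with 26 and 46 read pairs. The top loop, with 68 read pairs against 28 expected, ended 85 kb away in ACOXL. The other 3 ran downstream into ANAPC1, a subunit of the anaphase-promoting complex, and were the longest of the 8 genes, at 580, 585 and 590 kb, with 26, 15 and 20 read pairs.

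BBC3, at chr19:47220822-47232766 on the minus strand, had 3 loops labelled SMC1 and 7 labelled CTCF at its starts, numbers reached by 20.2% and 22.8% of coding genes. They held at most 39 and 26 read pairs, the latter the lowest top value of the 8 genes in the list labelled CTCF. All 3 labelled SMC1 ran downstream into SAE1, a subunit of the SUMO-activating enzyme, and 2 of them ended at its start. Its strongest CTCF peak, chr19:47230257-47231216, with a fold enrichment of 9.47, lay in an intron of BBC3, 831 bp from a start. Loops that passed over the whole gene numbered 25 labelled SMC1 and 16 labelled CTCF, beside 17 and 34 at BAX, 5 and 18 at BCL2A1 and 1 and 10 at BCL2. The strongest of those over BBC3 joined chr19:47210001-47215000 and chr19:47245001-47250000, with 83 and 145 read pairs, more than any loop at its starts.

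**Figure D4:**
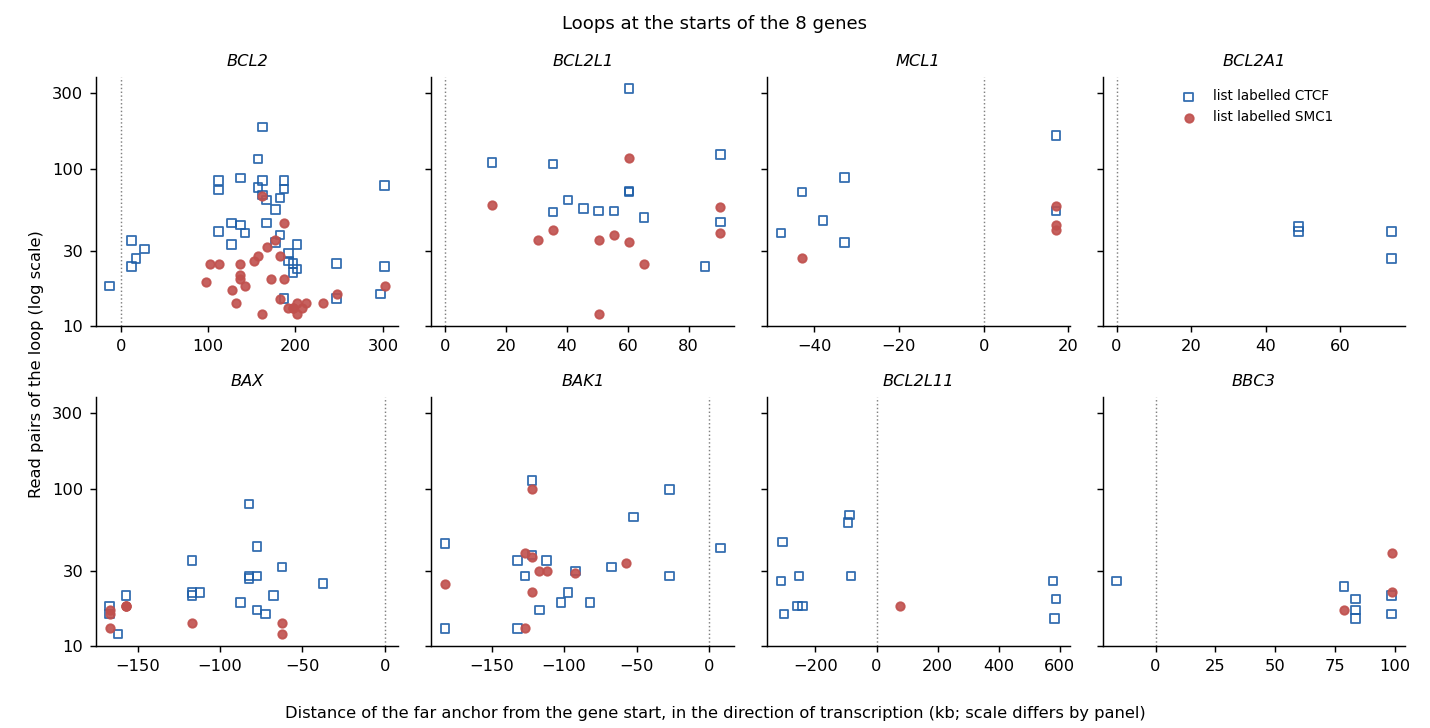
Read pairs of each loop (log scale) by the distance of its far anchor from the gene start in the direction of transcription (kb), 1 panel per gene, with filled circles for the list labelled SMC1 and open squares for the list labelled CTCF. Loops of BCL2L1 lie to the right of the start and those of BAX to the left, and BCL2A1 has squares only.

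A median gene had 0 loops labelled SMC1 and 1 labelled CTCF, while the medians over the 8 genes were 6.5 and 13. At least 10 loops were found at 3 of the 8 in the list labelled SMC1 (BCL2, BCL2L1 and BAK1), against 5.00% of coding genes. In the list labelled CTCF it was 5 of the 8 (with BAX and BCL2L11), against 15.0%. By read pairs the loops labelled CTCF stood above their list, with a median of 33 (28 to 40) beside 23, and those labelled SMC1 did not, with 22 (18 to 28) beside 21. By observed over expected neither did. The median observed over expected read pairs was 3.82 (3.48 to 4.22) for the loops labelled SMC1, beside 4 in the whole list, and 3 (2.81 to 3.14) for those labelled CTCF, below the 4.03 of the whole list. Median spans of 125 and 110 kb stood beside 130 and 125 kb. SMC1 peaks of the zones fell into anchors of the list labelled SMC1 in 47.8% of cases (41.1% to 54.6%), beside 22% of all SMC1 peaks, and into anchors of the list labelled CTCF in 62.4% (55.6% to 68.8%), beside 51.2%. The 47.8% did not hold in every zone. At BCL2A1 and BCL2L11 the share in anchors labelled SMC1 was below that of the whole list. Peaks of a zone can share an anchor, so they are not separate observations.

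The lists shared most loops of the 8 genes. When anchors could lie up to 15 kb apart, 95.6% of the 68 loops labelled SMC1 had a partner among those labelled CTCF (87.8% to 98.5%), and 82.4% of the 119 had one in the other direction (74.5% to 88.2%). With identical bins it was 45 bin pairs, which are 66.2% and 37.8% of the member loops. The whole lists shared 19336 bin pairs, of 28012 loops labelled SMC1 and 80487 labelled CTCF. The 8 genes were thus near the whole list for loops labelled SMC1 and above it for those labelled CTCF. For the tolerance of 15 kb no share of the whole lists is given here. These 45 held 1391 and 2815 read pairs in all, a ratio of 2.02 of the list labelled CTCF to that labelled SMC1. The same ratio was 1.88 over the 19336 bin pairs shared by the whole lists. By gene it was 2.70 at BCL2, 2.56 at MCL1 and 2.14 at BCL2L1, 1.61 at BAX, 1.06 at BAK1 and 0.782 at BBC3. These are raw read pairs, not scaled for the depth of the lists, and with the lists exchanged each ratio would be inverted. Observed over expected read pairs gave another order. Their median over the shared bin pairs was 4.86 in the list labelled SMC1 and 3.46 in that labelled CTCF at BCL2, 2.80 and 2.10 at MCL1, and 3.85 and 2.96 at BAX. It was 3.19 and 5.74 at BCL2L1, 3.91 and 4.47 at BAK1, and 2.47 and 3.10 at BBC3. BCL2, MCL1 and BAX were thus higher in the list labelled SMC1 by this measure, and the other 3 genes in that labelled CTCF, so the order of the genes depends on the measure. Without replicates no error beyond counting can be given.

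**Figure D5:**
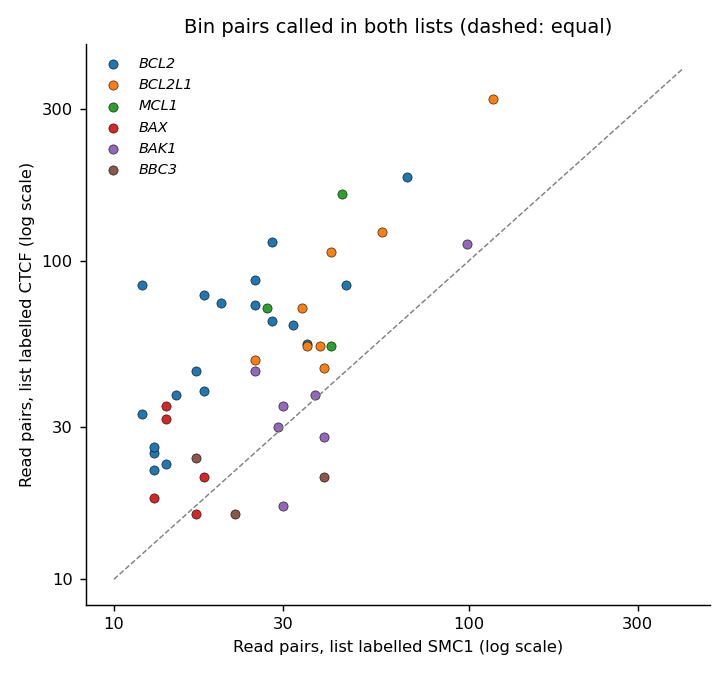
Read pairs of the 45 bin pairs called in both lists, with the list labelled SMC1 on the x axis and the list labelled CTCF on the y axis (both log scale), coloured by gene, and a dashed line of equal numbers. Of the 45 points, 40 lie above the line and 5, of BAX, BAK1 and BBC3, below it, in read pairs that are not scaled for depth. Of the 19336 bin pairs shared by the whole lists, 15596 held more read pairs in the list labelled CTCF.

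The direction of the CTCF motifs at the loop anchors could be read for few of the loops. The next sequences are the matches at the anchors of the top loops of BCL2, BCL2L1 and BAK1 and of the top BBC3 loop labelled SMC1, where not yet printed. Of the top loops, these are the ones whose orientation could be read at the summits or over the peaks. The motif is in capitals, and the sequences are shorter where they lie in an untranslated region.
BCL2 inner anchor, chr18:63155568-63155628, minus strand: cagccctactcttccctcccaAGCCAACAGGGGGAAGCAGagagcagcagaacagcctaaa
BCL2L1 anchor beyond the gene end, chr20:31661696-31661756, plus strand: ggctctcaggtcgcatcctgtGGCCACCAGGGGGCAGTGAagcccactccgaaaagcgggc
BCL2L1 anchor at the start, chr20:31722936-31722964, minus strand: ctggcTCCCAGTAGGAGGCGGAGAgccaa
BAK1 second site of the near anchor, chr6:33589803-33589863, plus strand: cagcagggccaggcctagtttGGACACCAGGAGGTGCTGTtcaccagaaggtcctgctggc
BAK1 far anchor, chr6:33700616-33700676, minus strand: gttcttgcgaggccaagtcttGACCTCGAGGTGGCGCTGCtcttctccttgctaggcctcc
BBC3 far anchor, chr19:47130849-47130877, plus strand: gccggCGGCGGTAGGTGGCGCGCGggtcc
At BAK1 the matches on the plus strand at the near anchor and the match of 16.5 bits on the minus strand at the far anchor pointed towards each other. So did the BCL2L1 matches, of 20.9 bits on the plus strand beyond the gene end and of 14 bits on the minus strand at the start. At BBC3 both matches, of 14.9 and 21.3 bits, lay on the plus strand, but matches closer to the summits pointed towards each other. At BCL2 the best matches, of 15.2 bits on the minus strand inside the gene and of 12.9 bits on the plus strand at the start, pointed away from each other, and here too those closer to the summits pointed towards each other. With the motif sought within 50 bp of CTCF summits, above 10.5 bits, 5 of 6 loops labelled SMC1 with a match at both anchors were convergent and 7 of 10 labelled CTCF, beside 56.1% and 56.9% of the whole lists. With the motif sought over whole CTCF peaks, above 13.5 bits, it was 4 of 8 and 6 of 12, beside 65.7% and 66.2%. With the best match anywhere in the anchor, above 13.5 bits, it was 8 of 17 and 13 of 26, with no share of the whole lists given here. Of the strongest loops of BCL2, BCL2L1, BAK1 and BBC3, that of BAK1 was convergent under each of these rules. The loops overlap one another and share anchors, so they are not separate observations.

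SMC1 peaks without CTCF were searched for short motifs of B cell factors, within 100 bp of the summit and on both strands. The NF-kappaB letters GGANTTTCC were found at 4 of the 124 such summits of the zones, 3.23% (1.26% to 8%), beside 1.13% of the 51192 in the whole list, an interval that leaves the latter just outside. No allowance was made for the number of motifs searched, and 3 of the 4 summits lie in the same gene. The difference is therefore not read as an enrichment. All 4 are printed, with the letters in capitals, 3 in introns of BCL2 and 1 between genes upstream of BCL2A1.
BCL2 SMC1 peak inside the gene, chr18:63157855-63157915, plus strand: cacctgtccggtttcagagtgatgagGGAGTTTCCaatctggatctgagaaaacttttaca
BCL2 SMC1 peak inside the gene, chr18:63224511-63224571, plus strand: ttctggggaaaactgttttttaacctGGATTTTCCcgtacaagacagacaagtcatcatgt
BCL2 SMC1 peak inside the gene, chr18:63293357-63293417, minus strand: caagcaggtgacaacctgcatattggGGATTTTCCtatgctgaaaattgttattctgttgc
BCL2A1 SMC1 peak upstream, chr15:80034487-80034547, plus strand: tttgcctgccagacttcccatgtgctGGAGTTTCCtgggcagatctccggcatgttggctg
Those of BCL2 lay 162, 95.5 and 26.7 kb from its start in SMC1 peaks of 2.72, 2.94 and 2.51 fold enrichment, and the 1 near BCL2A1 lay upstream, at -63.4 kb, in a peak of 2.07. The EBF letters CCCNNGGGA were found at 4.84% (2.24% to 10.2%) beside 3.51%, the ETS letters GAGGAAGT at 1.61% (0.443% to 5.69%) beside 2.26%, the RUNX letters TGTGGTTT at 4.03% (1.73% to 9.09%) beside 2.79%, and the IRF letters GAAANNGAA at 6.45% (3.31% to 12.2%) beside 8.98%. In these cases the interval holds the share of the whole list. A match of letters does not show that the factor was bound, and overlaps between the motifs were not examined.

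Of the other genes of the pathway, fewer loops were found at the starts than at the 8 genes. Of 15 further BCL2 family genes, 12 had an SMC1 peak and 11 a CTCF peak within 1 kb of a start, 7 had a loop labelled SMC1 and 11 a loop labelled CTCF. BID, a BH3-only protein that is cut by caspase, had the most loops among them, 16 and 15. BAD had the highest SMC1 density, 16.5 peaks per 100 kb, and PMAIP1, the gene of NOXA, had 15.5, as dense as the BCL2 zone. Of 13 genes of the mitochondrial and caspase steps of apoptosis, all 13 had an SMC1 peak and 11 a CTCF peak at a start, while 5 and 7 had a loop. BIRC2, an inhibitor of apoptosis next to BIRC3, had the most, 13 and 19. Of all coding genes, 62.6% had an SMC1 peak and 46.7% a CTCF peak within 1 kb of a start. A loop labelled SMC1 was found at 35.1% of them and one labelled CTCF at 59.0%. The 13 genes were near these loop shares. The median number of loops labelled CTCF was 3 over the 15 and 2 over the 13 genes, beside 13 over the 8. The 8 B cell marker genes had a median of 14.5 loops labelled CTCF and 4 labelled SMC1, and of 13.6 SMC1 peaks per 100 kb beside 11.2.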

How the data were processed

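SMC1 FA-EGS HiChIP and CTCF FA HiChIP of HG00731 were analysed, in 2 biological replicates each, each target having 1 list of peaks and 1 of loops. Reads were mapped by the authors with BWA-MEM (hg38), who kept alignments with high mapping quality, removed duplicates and pooled both replicates. Peaks were called with MACS3 3.0.1 without an input sample. The deposited fold enrichment is a ratio of the summit signal to the local background, and the significance that the authors deposited is the -log10 of the q-value, lowest at 2.00. For loops, the authors deposited raw counts of read pairs per pair of 5 kb bins, called by MAPS, beside an expected score from its regression. The deposited q-value and the deposited -log10 P-value of clusters for loops were not used. Sequencing depth by replicate is unknown here.

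All 8 genes and the other lists of genes were chosen with earlier results of these data known. Gene models were GENCODE release 44. Peaks of SMC1 and CTCF overlapped where they shared at least 1 bp, a loop was found in the other list where both anchors met after an extension of 15 kb, and the observed count was divided by the expected. The sites named are, per gene and target, the peak with the highest -log10 q-value within 1 kb of a start and in the zone, the loop with the most read pairs and the longest loop, with the genes at their ends. Other peaks, loops and pathway genes given with values were chosen after their values were seen. The motif was learned from the 3000 strongest CTCF summits. Shares carry 95% Wilson intervals and medians intervals from the ranks. No test was made, as no value per replicate was used. Procedures were tested on simulated data. Alternatives were other distances, q-value minimums, transcripts, tolerances, motif rules and exchanged loop lists. Sequences were read with pysam 0.24.0, tables with pandas 2.3.3 and NumPy 2.4.6, intervals came from SciPy 1.17.1 and plots from Matplotlib 3.10.9, under Python 3.11.15.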

Additional observations from a re-analysis of the deposited data

How the results depend on the processing

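Counts moved with the thresholds. With peaks limited to a -log10 q-value from 10 upwards, the zones held 129 SMC1 peaks, with median fold enrichments of 3.48 for SMC1 and 6.50 for CTCF. Zones of 50 kb held 131 SMC1 and 61 CTCF peaks. Loops labelled SMC1 numbered 105 with anchors within 10 kb and 36 with at least the median read pairs, and loops labelled CTCF 76 with a start inside the anchor. Exchanging the lists exchanged the counts of 68 and 119, and the 23.5% of loops labelled CTCF that ended at another coding start became 14.7%. In the whole lists, 26.7% of loops labelled CTCF with a coding start at an anchor had one at both, and 32.2% of those labelled SMC1. With a start inside the far anchor, 4.41% of the member loops labelled SMC1 and 15.1% of those labelled CTCF ended at another coding start. The shares of loops found in the other list fell to 66.2% and 37.8% with no tolerance, and that of the loops labelled CTCF to 67.2% with 5 kb. With summits at most 200 bp apart, 29.3% of SMC1 peaks were shared with CTCF. A CTCF motif within 50 bp of the summit was found at 15.6% of CTCF summits, at 6.25% with the 99th percentile, and at 33.3% anywhere in the peak. This last rule, the same rule for the orientation, and the MANE Select start alone (6 and 5 genes with a peak, 61 and 96 loops) were chosen after seeing the data. The other 28 values moved by less than their interval or 1.5 times. No paired analysis was possible because the lists pool the replicates, and no replicate could be left out.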
